A study of Mus musculus with 6 samples.

Results

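Small nucleolar RNA (snoRNA) host genes were examined in bulk-seq of the mouse spinal cord. The set comprised 10 genes chosen by their symbols, Gas5 and Snhg1, Snhg3, Snhg4, Snhg5, Snhg6, Snhg8, Snhg11, Snhg12 and Snhg14. All 10 were among the 25576 genes with a value above 0 in at least 1 library. They were set beside the snoRNA genes listed under a Snora symbol (4 genes) or a Snord symbol (1 gene).

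SMA mice (mSmn-/-, hSMN22tg/0) lacked both copies of mouse Smn and control mice (mSmn+/-, hSMN22tg/0) kept 1 copy, while both carried the human SMN2 transgene of the Taiwanese line on the FVB strain and were taken at postnatal day 4. Whole spinal cord was sequenced in 3 libraries per genotype, so cells of all types entered each value. The study's methods give triplicates with an n of 1 per group and do not say that the 3 libraries came from separate animals, so the p-values measure only the spread between libraries, which may be technical. Levels are in FPKM, which accounts for gene length and library size, triplets of values follow the order of replicates 1, 2 and 3, and a gene missing from a library was taken as 0 FPKM.

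A snoRNA host gene is transcribed and spliced like other genes. The snoRNAs are cut out of its introns and guide the methylation (box C/D) or pseudouridylation (box H/ACA) of ribosomal and other RNAs. Several host transcripts begin with a pyrimidine tract, as do mRNAs of the translation machinery (5'TOP mRNAs), and several spliced hosts, Gas5 among them, are degraded by nonsense-mediated decay, so that the level of a spliced host is not a measure of the snoRNAs made from it. Snhg14 and Snhg11 are best known from neurons, and Snhg14 is expressed from the paternal chromosome only, antisense to Ube3a.

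Smn1, the targeted gene, had 10.4, 8.64 and 11.9 FPKM in the libraries labelled control and 8.48, 9.30 and 11.1 FPKM in those labelled SMA. The ranges overlapped (log2 fold change -0.09 and adjusted p = 0.819 by limma, and -0.20 without control replicate 2), and values of whole genes do not separate the disrupted exons from the rest. Smn1 therefore gave no check of the labels, and each direction below rests on them. The paper reports reduced CD31 (Pecam1) in the SMA spinal cord, by immunofluorescence of the protein in cross-sections. The values here are of RNA in the whole cord, which is a different measure. Pecam1 had 5.19, 7.06 and 5.26 FPKM in control and 4.53, 2.92 and 3.64 FPKM in SMA libraries. These did not overlap, where 6.67% of all genes tested lay below in this way. Whether Pecam1 bears on the labels was not tested. The tissue label was met by its markers. All 6 Hox genes of the trunk levels were present in each library (sum 117 to 225 FPKM), as were all 6 neuron markers (sum 1372 to 2070 FPKM, most abundant Meg3) and all 5 motor neuron markers (sum 15.8 to 34.8 FPKM, most abundant Slc18a3).

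The library labelled control replicate 2 stood apart. Its 12 hepatocyte markers summed to 30164 FPKM, against 47.7 to 104 FPKM in the other 5 libraries, with Alb the most abundant gene. Its 7 erythroid markers summed to 18823 FPKM (1115 to 1861 elsewhere, most abundant Hbb-bs), its 6 neutrophil markers to 389 FPKM (4.95 to 10.9 elsewhere, most abundant S100a8, with Elane at 0 in control replicate 3 and SMA replicate 1) and its 5 markers of proliferating cells to 131 FPKM (33.4 to 57.1 elsewhere, most abundant Pcna). Among the host genes, Gas5, Snhg3 and Snhg1 were higher in this library than in any other, Snhg14 and Snhg6 were lower than in any other, and the remaining 5 lay inside the range of the other libraries. The largest departures were in Snhg3, at 1.59 times the mean of the other 5 libraries, and in Snhg1, at 1.54 times that mean. Snhg14 reached 0.753 and Snhg6 0.687 of it. The summed neuron markers were at 0.703, the motor neuron markers at 0.558 and the Hox genes of the trunk levels at 0.601 times the mean of the other 5 libraries. Astrocyte (5 genes, most abundant Slc1a2), oligodendrocyte lineage (6, Mbp), microglia (5, P2ry12) and endothelial markers (4, Cldn5) lay between 0.828 and 1.26 times that mean. The summed endothelial markers had 40.9, 40.4 and 39.1 FPKM in control and 31.5, 24.8 and 24.6 FPKM in SMA libraries, without overlap. Of these 4 genes, Cldn5 and Pecam1 lay below without overlap, while Flt1 and Cdh5 overlapped. This held with control replicate 2 (6.67% of all genes tested lay below) and without it (13.9%). Sums of the astrocyte, oligodendrocyte lineage and microglia lists overlapped between control and SMA libraries. They were 353 to 454 and 411 to 440 FPKM for astrocytes, 752 to 1137 and 638 to 796 FPKM for oligodendrocytes and 43.8 to 55.9 and 42.4 to 49.1 FPKM for microglia. The contribution of liver, blood or dividing cells to these levels was not tested. Results without this library are given beside those with it for the host genes and, at least as median log2 fold changes, for the lists of related genes.

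**Figure D1:**
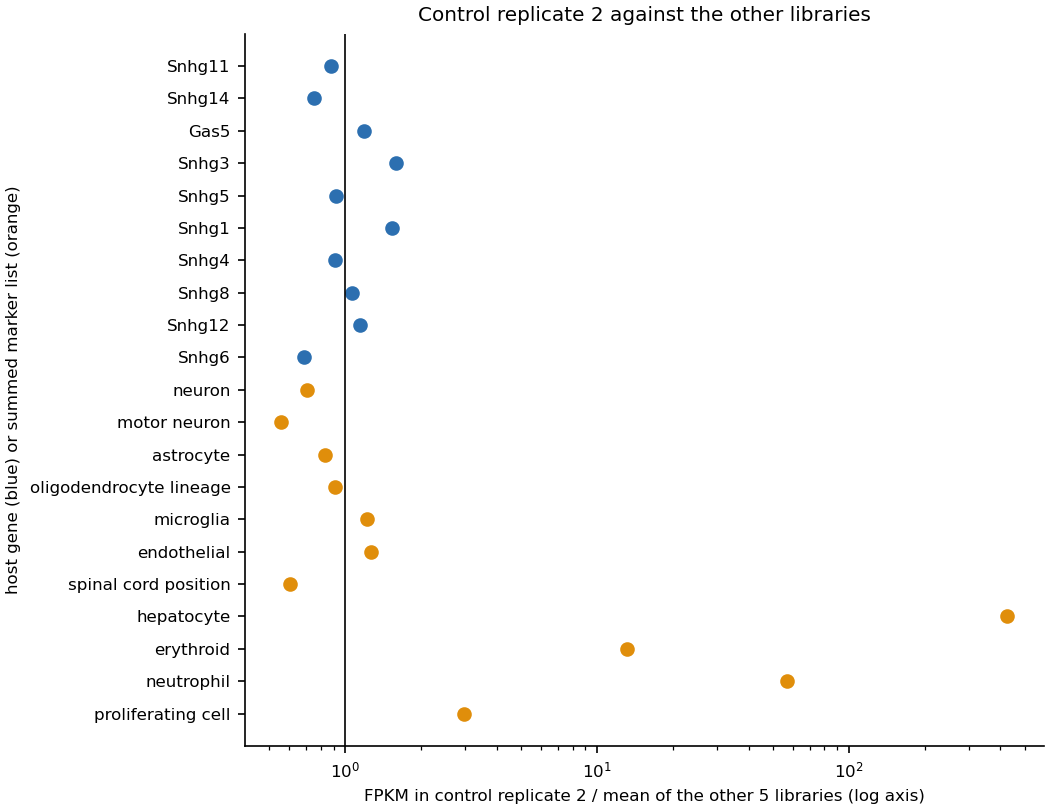
Level in control replicate 2 divided by the mean of the other 5 libraries, for each host gene (blue) and for the summed FPKM of each marker list (orange), on a log axis. Host genes lie between 0.687 and 1.59, neuron markers at 0.703, proliferating cell markers at 2.97 and hepatocyte markers at 427.

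The 10 host genes spanned a wide range of levels. Snhg11 was the most abundant (mean 418 FPKM over the 6 libraries), followed by Snhg14 (245 FPKM) and Gas5 (43.1 FPKM). Their ranges over the libraries did not overlap one another, nor did the range of Gas5 overlap that of Snhg3 (17.8 FPKM). Below these came Snhg5 (14.8 FPKM), Snhg1 (11.3 FPKM), Snhg4 (9.62 FPKM) and Snhg8 (8.65 FPKM). From Snhg3 down to Snhg8 each gene overlapped its neighbour in this order. Snhg12 (4.63 FPKM) lay below Snhg8 in all 6 libraries without overlap, and Snhg6 (3.17 FPKM) overlapped Snhg12. Snhg11 and Snhg14 together made up 81.2% to 87.7% of the summed FPKM of the set in a library, and the other 8 genes summed to 99.1 to 131 FPKM. The set held 0.168% of all FPKM in control replicate 2 and 0.189% to 0.243% in the other libraries. Between the lowest and the highest library, Snhg1 varied most, by 2.28 times, and Snhg4 least, by 1.36 times.

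**Figure D2:**
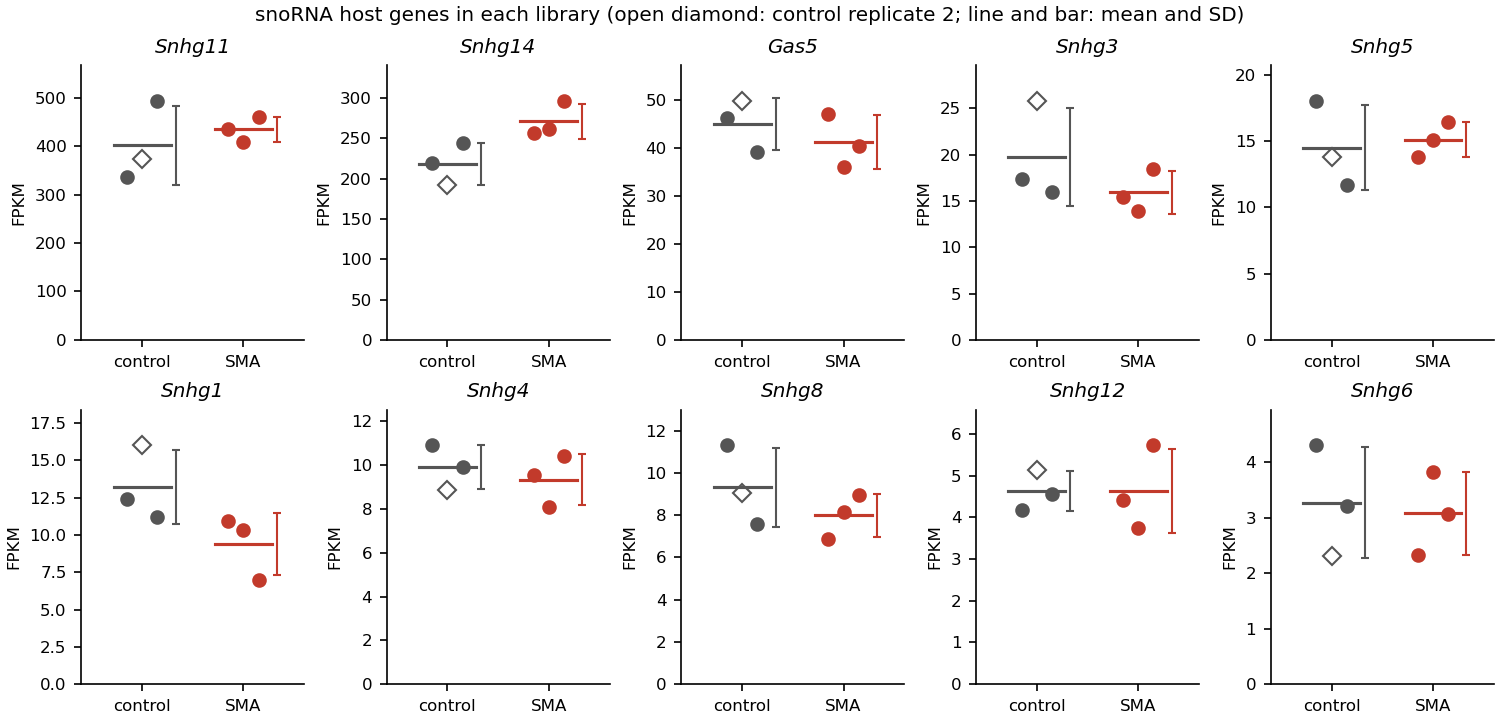
FPKM of the 10 host genes in each library, control in grey and SMA in red, with the mean (line) and SD (bar) of 3 libraries; the open diamond is control replicate 2. Snhg14 is higher in every SMA library (256 to 296) than in any control library (192 to 244), Snhg1 is lower in every SMA library (7.01 to 10.9) than in any control library (11.2 to 16.0), and the other 8 genes overlap.

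Of the 10 host genes, all 10 had a mean of at least 0.5 FPKM and were tested, and 0 passed an adjusted p of 0.05 by limma, as did 0% of the 17088 genes tested. At an unadjusted p under 0.05, 0 host genes were higher in SMA mice (3.40% of all genes tested) and 0 were lower (2.39%). With the added threshold of a fold over 2, by which the study defined DEGs in bulk-seq, 0 host genes were DEGs (0.170% of all genes tested). Every SMA library lay above every control library for 1 host gene, Snhg14, where 10.3% of all genes tested did so. Every SMA library lay below every control library for 1 host gene, Snhg1, where 6.67% of all genes tested did so. The log2 fold changes, on the scale of log2(FPKM + 1), ran from -0.45 to 0.31 with a median of -0.07, and the median of all genes tested was 0.04.

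Without control replicate 2, 0 host genes passed an adjusted p of 0.05 (0.0121% of the 16574 genes tested, by limma). At an unadjusted p under 0.05, 1 host gene, Snhg14, was higher in SMA mice (5.27% of genes tested) and 0 were lower (5.20%). By the thresholds for DEGs the number was 0 (0.139%). Snhg14 still lay above every control library (14.2% of genes tested) and Snhg1 below every control library (13.9%). The fold changes narrowed to between -0.32 and 0.22 with a median of -0.06, and the median of all genes was 0.00. The sign of Snhg12 differed between these fits, with -0.01 and 0.06.

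**Figure D3:**
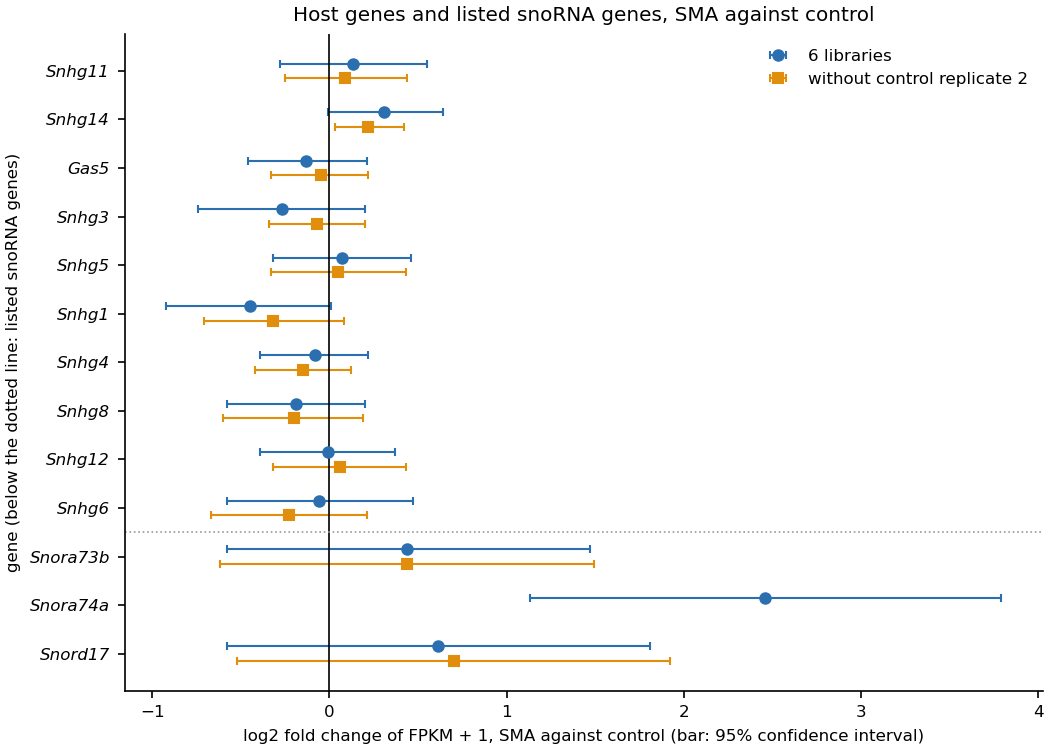
Log2 fold change of FPKM + 1 in SMA against control, with 95% confidence intervals, for the 10 host genes and, below the dotted line, the listed snoRNA genes that were tested (blue, 6 libraries; orange, without control replicate 2). The host genes lie between -0.45 and 0.31; Snora74a lies at 2.46 and is not drawn without control replicate 2, where both control libraries are listed at 0.

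Snhg14 (ENSMUSG00000100826) is the long RNA of the Prader-Willi and Angelman region, which carries clusters of snoRNA genes in its introns and extends antisense through Ube3a. It was recorded at 219, 192 and 244 FPKM in the libraries labelled control and at 256, 261 and 296 FPKM in those labelled SMA. All 3 SMA libraries exceeded all 3 control libraries, and control replicate 2 was the lowest of the 6. The means were 218 ± 26.2 FPKM (SD, n = 3 libraries) in control and 271 ± 22.0 FPKM (SD, n = 3 libraries) in SMA, a ratio of 1.24. The log2 fold change was 0.31 with a 95% confidence interval from -0.01 to 0.64 (standard error 0.136, adjusted p = 0.683 by limma). The exact two-sided permutation test gave p = 0.1, the smallest value that 3 against 3 libraries allow. Without control replicate 2 the ratio of means was 1.17 and the log2 fold change 0.22 with an interval from 0.03 to 0.42 (standard error 0.0843, adjusted p = 0.437 by limma). The exact permutation test then gave p = 0.1, again the smallest possible. The difference did not pass the adjusted threshold with or without this library.

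Other genes are annotated along the same unit. RefSeq places Snhg14 on the minus strand of chromosome 7 from 59272737 to 60450177 (GRCm38), GENCODE M21 from 59307924 to 59975759, and the deposited locus covers 59384597 to 59411173 alone, so the value of Snhg14 may stem from a small stretch of the unit. Along the RefSeq span, 7 genes on its strand and 4 on the other strand had values, of which Ube3a extends past the end of the span. All 7 on the strand of Snhg14, this gene included, had a positive log2 fold change (median 0.32), as did 58.0% of all genes tested, and for 4 of them the SMA libraries all lay above the control libraries (10.3% of all genes tested). Besides Snhg14 these were Gm38393, RP24-439I22.4 and RP24-439I22.9. Gm38393 had 58.2, 50.9 and 63.9 FPKM in control and 68.3, 70.2 and 78.4 FPKM in SMA libraries. RP24-439I22.4 had 12.3, 10.9 and 13.6 FPKM in control and 15.3, 15.9 and 16.3 FPKM in SMA libraries. RP24-439I22.9 had 7.27, 6.76 and 7.66 FPKM in control and 8.58, 9.04 and 10.3 FPKM in SMA libraries.

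These 3 showed the order of libraries seen for Snhg14, with control replicate 2 lowest, and 6 of the 7 genes on this strand were lowest there. The genes lie in 1 transcription unit and are not independent of one another. Without control replicate 2 the median of the 7 was 0.24, and the same 4 had no overlap (14.2% of all genes tested lay above). The other 3 overlapped between the groups, with log2 fold changes of 0.37 (Snrpn), 0.70 (Snurf) and 0.25 (RP23-60N8.3) that were 0.10, 0.46 and 0.15 without that library. Snrpn, the spliceosomal protein gene upstream of the snoRNA clusters, had 230, 128 and 215 FPKM in control and 225, 244 and 250 FPKM in SMA libraries. Snurf, from the same transcript as Snrpn, had 2.11 to 6.02 FPKM in control and 5.30 to 6.51 FPKM in SMA libraries. RP23-60N8.3 had 8.01 to 14.0 FPKM in control and 11.6 to 12.1 FPKM in SMA libraries. By limma, 0 of the 7 genes passed the adjusted threshold (adjusted p = 0.683 or above), and 3 were higher at an unadjusted p under 0.05 (3.40% of all genes tested).

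On the other strand, Ube3a, the ubiquitin ligase gene that Snhg14 overlaps, had 54.0, 40.7 and 49.0 FPKM in control and 47.4, 51.4 and 53.5 FPKM in SMA libraries. The groups overlapped, with a log2 fold change of 0.09 (adjusted p = 0.786 by limma) that was -0.02 without control replicate 2 (adjusted p = 0.946 by limma). Gm7367, RP24-439I22.7 and RP24-439I22.8 had at most 1.34 FPKM in any library. All 3 tested genes of the other strand had a positive log2 fold change with 6 libraries (median 0.14, and 0.12 without control replicate 2). For RP24-439I22.8 (0.14) all SMA libraries lay above all control libraries (10.3% of all genes tested). Gm7367 (0.59) also had no overlap, with means of 0.267 FPKM in control and 0.927 FPKM in SMA libraries. It passed the filter of 0.5 FPKM only through the SMA libraries. Its unadjusted p under 0.05 (3.40% of all genes tested, adjusted p = 0.683 by limma) and its sign are tied to that direction. Nothing is drawn from them. The libraries were strand-specific, but whether the quantification used the strand is not given in the sources used here, so sense and antisense reads at these loci may not have been told apart.

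**Figure D4:**
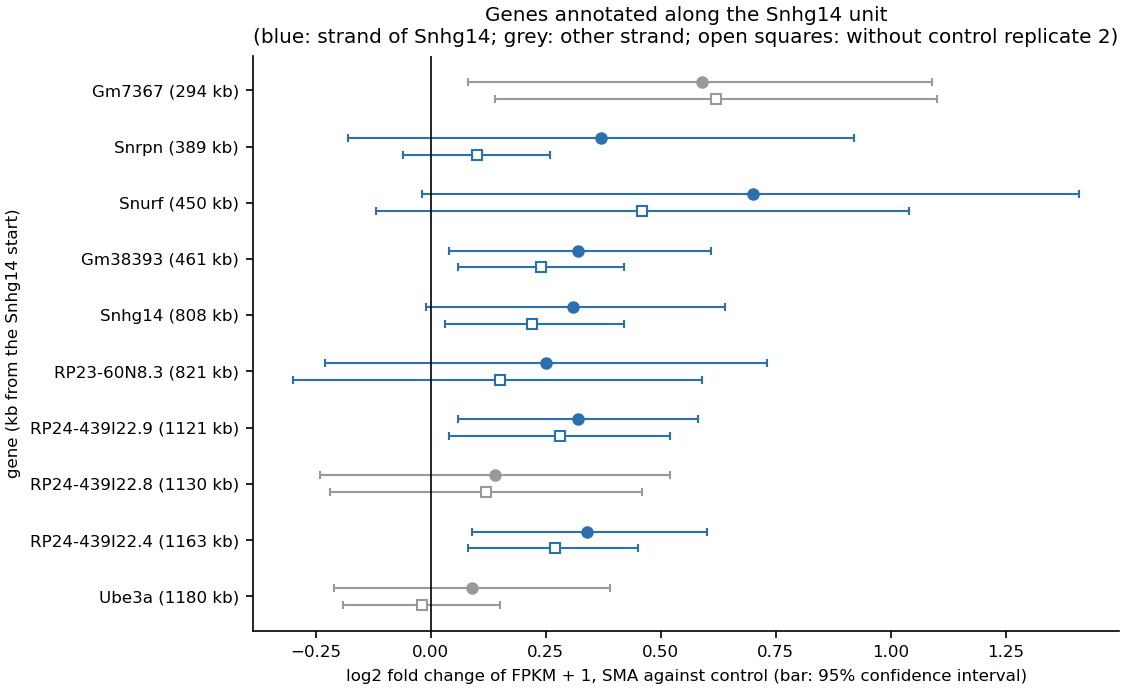
Log2 fold change of FPKM + 1 in SMA against control with 95% confidence intervals for the 10 tested genes annotated along Snhg14, ordered by distance in kb from the Snhg14 start (circles, 6 libraries; open squares, without control replicate 2). The 7 genes on the strand of Snhg14 (blue) all lie above 0 with a median of 0.32, and the 3 on the other strand (grey) lie at 0.09 (Ube3a), 0.14 (RP24-439I22.8) and 0.59 (Gm7367).

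Summed markers of neurons had a similar order of libraries to Snhg14, although their groups overlapped. The 6 neuron markers summed to 1751, 1372 and 1978 FPKM in control and 1962, 2002 and 2070 FPKM in SMA libraries, with none at 0. For 3 of them (Tubb3, Syt1 and Rbfox3) all SMA libraries lay above all control libraries (10.3% of all genes tested, and 14.2% without control replicate 2). Meg3, Stmn2 and Snap25 overlapped. The median log2 fold change of the 6 neuron markers was 0.36, and 0.13 without control replicate 2. The 4 tested motor neuron markers had medians of 0.07 and, without control replicate 2, -0.09. The summed motor neuron markers overlapped between the groups. In bulk tissue, a change in the number of cells of a type and a change in RNA per cell cannot be told apart. The part of neuron content in the difference of Snhg14 was not tested.

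Snhg11 (ENSMUSG00000044349), annotated on chromosome 2 from 158375638 to 158386145, had 337, 374 and 493 FPKM in control libraries and 436, 409 and 460 FPKM in SMA libraries. Control replicate 3 was the highest and control replicate 1 the lowest of all, so the SMA values fell inside the control range. The log2 fold change was 0.13 with an interval from -0.28 to 0.55 (adjusted p = 0.763 by limma, and p = 0.5 by the exact permutation test), and 0.09 without control replicate 2 (adjusted p = 0.863 by limma). It was 0.02 without control replicate 1 and 0.29 without control replicate 3. As the most abundant member, it was compared with every gene tested over the 6 libraries. The 5 genes with the highest Pearson correlation of log2(FPKM + 1) were Gm10862 (0.991), Zscan20 (0.991), Gm43267 (0.990), Celsr3 (0.990) and Fam173b (0.989). Celsr3, a cadherin of axon guidance, had 19.3, 21.6 and 37.5 FPKM in control and 30.9, 25.8 and 31.9 FPKM in SMA libraries, again with control replicate 3 highest and control replicate 1 lowest. In all, 73 genes reached a correlation of 0.95, which describes 6 libraries and carries no test.

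Snhg1 (ENSMUSG00000108414), which hosts box C/D snoRNAs on chromosome 19 from 8723475 to 8726443, was recorded at 12.4, 16.0 and 11.2 FPKM in the libraries labelled control and at 10.9, 10.3 and 7.01 FPKM in those labelled SMA. No SMA library reached the lowest control library, although SMA replicate 1 and control replicate 3 lay close together, and control replicate 2 was the highest. The means were 13.2 ± 2.49 FPKM (SD, n = 3 libraries) in control and 9.39 ± 2.08 FPKM (SD, n = 3 libraries) in SMA, a ratio of 0.713. The log2 fold change was -0.45 with a 95% confidence interval from -0.92 to 0.01 (standard error 0.195, adjusted p = 0.683 by limma). The exact two-sided permutation test gave p = 0.1, the smallest value possible. Without control replicate 2 the ratio was 0.798 and the log2 fold change -0.32 (interval -0.71 to 0.08, adjusted p = 0.556 by limma, and p = 0.3 by the exact permutation test). Without SMA replicate 3, the lowest library, the log2 fold change was -0.28. The 5 markers of proliferating cells had the same order of groups, with sums of 57.1, 131 and 49.0 FPKM in control and 42.3, 33.4 and 39.1 FPKM in SMA libraries, Pcna the most abundant and none at 0. For 4 of these 5 markers the SMA libraries all lay below the control libraries, with control replicate 2 (6.67% of all genes tested) and without it (13.9%). Their part in the level of Snhg1 was not tested.

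Gas5 and Snhg5 are hosts of box C/D snoRNAs whose spliced RNAs are known 5'TOP transcripts. Gas5 (ENSMUSG00000053332), on chromosome 1 from 161034422 to 161038539, had 46.2, 49.7 and 39.0 FPKM in control and 47.1, 35.9 and 40.4 FPKM in SMA libraries. The groups overlapped (log2 fold change -0.13, interval -0.46 to 0.21, adjusted p = 0.728 by limma), and the fold change was -0.05 without control replicate 2 (adjusted p = 0.906 by limma). Leaving out SMA replicate 2 gave -0.04, control replicate 3 -0.22 and SMA replicate 1 -0.23. The deposited locus of Gas5 is shared with 4 other genes, among them Serpinc1, a liver gene with 392 FPKM in control replicate 2 and 0.686 to 1.36 FPKM in the other libraries. Zbtb37, which overlaps Gas5 on the other strand, had 14.6, 10.2 and 17.1 FPKM in control and 14.9, 16.3 and 14.5 FPKM in SMA libraries, and was lowest where Gas5 was highest. Snhg5 (ENSMUSG00000097195), on chromosome 9 from 88521050 to 88522929, ranged from 11.7 to 18.0 FPKM in control and from 13.8 to 16.4 FPKM in SMA libraries. Its log2 fold change of 0.07 (adjusted p = 0.868 by limma) was 0.05 without control replicate 2, 0.23 without control replicate 1, 0.13 without SMA replicate 1, 0.02 without SMA replicate 3 and -0.06 without control replicate 3.

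Snhg3, Snhg4, Snhg8 and Snhg12 host box H/ACA snoRNAs for the most part. Snhg3 (ENSMUSG00000085241), on chromosome 4 from 132348014 to 132353686, had 17.4, 25.8 and 16.0 FPKM in control and 15.4, 13.9 and 18.5 FPKM in SMA libraries. Control replicate 2 was the highest, and the other 2 control libraries lay inside the SMA range. The log2 fold change of -0.27 (interval -0.74 to 0.20, adjusted p = 0.683 by limma) was -0.07 without that library (adjusted p = 0.870 by limma) and -0.18 without SMA replicate 2. Snhg3 lies on the strand of Rcc1, which encodes the nucleotide exchange factor of Ran, and the 2 genes share a deposited locus. Rcc1 had 5.48, 9.27 and 5.32 FPKM in control and 5.20, 6.17 and 5.46 FPKM in SMA libraries, so it too was highest in control replicate 2. Reads from the shared stretch may be split between both genes.

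Snhg8 (ENSMUSG00000104960), on chromosome 3 from 123507552 to 123508404, ranged from 7.60 to 11.3 FPKM in control and from 6.87 to 8.93 FPKM in SMA libraries (log2 fold change -0.19, adjusted p = 0.683 by limma, and -0.20 without control replicate 2). It was -0.06 without control replicate 1, -0.10 without SMA replicate 1 and -0.32 without control replicate 3. Snhg12 (ENSMUSG00000086290), on chromosome 4 from 132308623 to 132311024, ranged from 4.18 to 5.15 FPKM in control and from 3.75 to 5.73 FPKM in SMA libraries (log2 fold change -0.01, adjusted p = 0.985 by limma). SMA libraries thus held both the lowest and the highest value of Snhg12, and leaving out single libraries gave fold changes from -0.14 (without SMA replicate 3) to 0.11 (without SMA replicate 2). Snhg6 (ENSMUSG00000098234), host of the box C/D snoRNA Snord87 on chromosome 1 from 9941959 to 9944118, was the least abundant, at 4.30, 2.30 and 3.20 FPKM in control and 2.33, 3.82 and 3.07 FPKM in SMA libraries. Its log2 fold change was -0.06 with control replicate 2 and -0.23 without it (adjusted p = 0.928 and 0.706 by limma). It was 0.11 without control replicate 1, 0.08 without SMA replicate 1 and -0.19 without SMA replicate 2. Mcmdc2, which overlaps Snhg6 on the other strand, had 1.24 FPKM in control replicate 2 and at most 0.0652 FPKM in the other libraries.

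The box H/ACA snoRNAs of Snhg3, Snora73a and Snora73b, are shown because both were listed and their sequences are close to identical. GENCODE M21 places them on the minus strand (GRCm38) in introns of Snhg3, Snora73a at chr4:132352775-132352979 and Snora73b at chr4:132352322-132352526, each with 205 bases. They differ at 7 positions (96.6% identical), marked in capitals and counted from 1 at the 5' end of Snora73a: G3A, G54A, A111G, T164C, G203A, T204A and T205A, with the base of Snora73a first.
Snora73a: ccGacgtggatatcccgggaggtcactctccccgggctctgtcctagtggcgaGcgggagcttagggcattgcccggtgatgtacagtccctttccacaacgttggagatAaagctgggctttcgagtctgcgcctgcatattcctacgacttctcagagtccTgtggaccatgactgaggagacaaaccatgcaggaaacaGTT
Snora73b: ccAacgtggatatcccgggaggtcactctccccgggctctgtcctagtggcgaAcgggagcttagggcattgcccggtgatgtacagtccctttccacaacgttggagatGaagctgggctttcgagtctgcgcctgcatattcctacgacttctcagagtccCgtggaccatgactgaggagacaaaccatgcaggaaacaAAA
Because the copies share nearly all bases, reads could be split between them, and their levels are uncertain one by one. Snora73a was listed at 0.803 FPKM in control replicate 2, at 0.912 FPKM in SMA replicate 2 and at 0 in the other 4 libraries. Snora73b had 0, 0.783 and 2.28 FPKM in control and 1.76, 1.78 and 0.916 FPKM in SMA libraries. The sum of both came to at most 0.193 of the level of Snhg3 in a library, and both groups held low and high values.

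Most hosted snoRNAs had no value at all. GENCODE M21, together with the RefSeq span for Snhg4, places 241 snoRNA genes inside the 10 hosts on the same strand. They range from 60 to 205 bases, and 208 of them lie in Snhg14. Of the 33 in the other 9 hosts, 31 lie in an intron of a host transcript, and the 2 of Snhg4 were not classified. Within Snhg14, 82 lie in an intron of an annotated transcript and 126 between annotated transcripts. Of all 241, 3 were listed in a library, and these were the only 3 with at least 168 bases. The shortest listed snoRNA or scaRNA gene of the whole series had 168 bases, and 1506 of the 1558 annotated snoRNA and scaRNA genes are shorter. Among genes of any type, 0 of 2448 with at most 100 bases were listed. Of the genes above that and up to 150 bases it was 1 of 3498, and from 201 to 250 bases 5.58% were listed. The values therefore hold no measurement of the short snoRNAs, and a level of 0 for them is not evidence of absence.

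**Figure D5:**
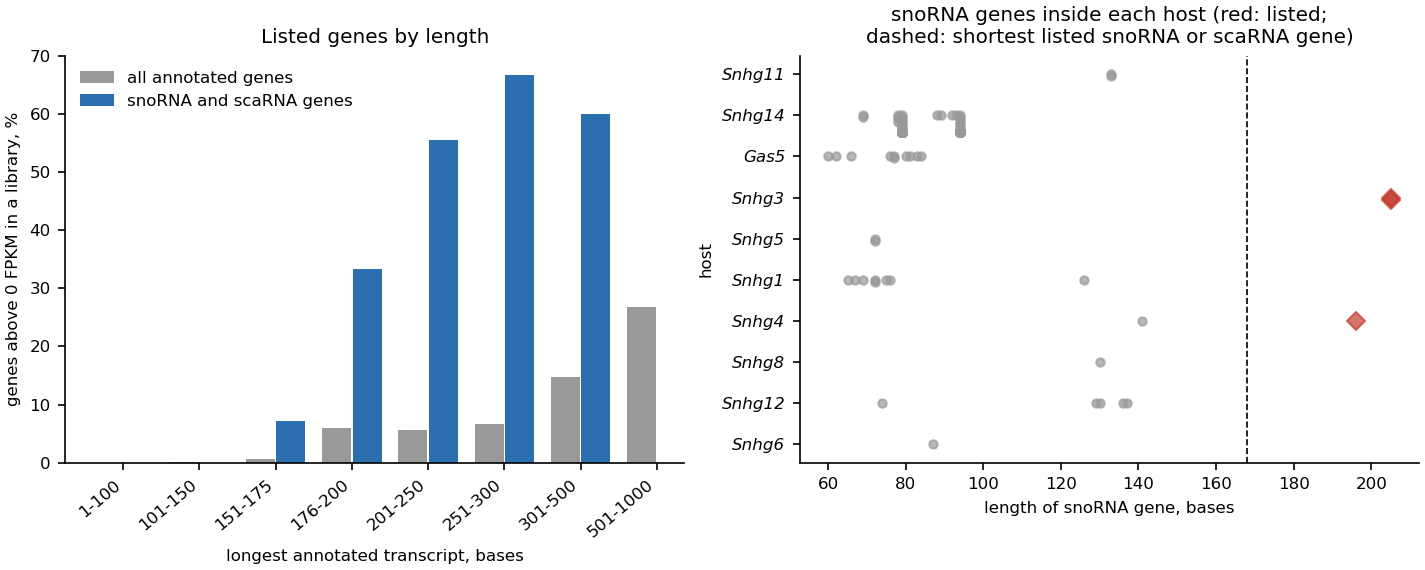
Left, percent of annotated genes that had a value above 0 FPKM in a library, by length of the longest annotated transcript, for all genes (grey) and for snoRNA and scaRNA genes (blue). Right, lengths of the 241 snoRNA genes inside the 10 hosts; the 3 listed ones (red) are the only ones past the dashed line at 168 bases.

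Examples of the hosted snoRNAs that were not listed show the difference in length. In the box C/D examples the capitals mark the C box TGATGA within the first 15 bases and the D box CTGA within the last 12, and in the box H/ACA examples the ACA that stands 3 bases before the end. Snord80 (81 bases, chr1:161037601-161037681, plus strand) lies in an intron of Gas5, Snord50b (72 bases, chr9:88521797-88521868, minus strand) in an intron of Snhg5, Snora24 (130 bases, chr3:123507937-123508066, minus strand) in an intron of Snhg8 and Snora16a (137 bases, chr4:132309464-132309600, plus strand) in an intron of Snhg12. Gm24866 (chr7:59393561-59393639, minus strand) carries the most frequent sequence among the copies of 79 bases in Snhg14.
Snord80: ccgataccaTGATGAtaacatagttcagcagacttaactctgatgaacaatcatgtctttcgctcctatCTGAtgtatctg
Snord50b: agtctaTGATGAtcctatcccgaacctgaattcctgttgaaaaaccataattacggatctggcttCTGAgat
Snora24: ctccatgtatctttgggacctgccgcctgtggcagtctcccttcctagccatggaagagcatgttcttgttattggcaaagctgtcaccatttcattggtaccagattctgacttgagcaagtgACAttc
Snora16a: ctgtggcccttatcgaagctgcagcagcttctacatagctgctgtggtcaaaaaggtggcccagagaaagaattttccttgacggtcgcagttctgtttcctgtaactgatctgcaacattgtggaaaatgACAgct
Gm24866: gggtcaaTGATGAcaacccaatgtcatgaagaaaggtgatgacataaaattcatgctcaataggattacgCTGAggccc
Of the 208 snoRNA genes in Snhg14, 189 (90.9%) held both C and D boxes and 0 held the ACA. In the other 9 hosts, 14 of 33 (42.4%) held both boxes and 7 (21.2%) held the ACA. Over all 1558 annotated snoRNA and scaRNA genes the shares were 19.1% and 19.3%. The copies in Snhg14 are repeats. The 130 genes of 79 bases held 52 distinct sequences, of which the one printed was shared by 33. Over all 208, 147 genes had a sequence that another copy also had.

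The promoters of the hosts were read from RefSeq (GRCm38.p6), which held 9 windows for 8 of the 10 genes, Gas5 having 2. The promoter table at hand had no window for Snhg4 and Snhg6. The 50 bases before and the 50 bases from the annotated start are printed for the 2 hosts whose groups did not overlap and for 3 others, with the longest run of C and T that touches the 5 bases on either side of the start in capitals. Snhg1 is shown at chr19:8723437-8723536 (plus strand), Snhg14 at chr7:60450128-60450227 (minus strand), Gas5 at its second start at chr1:161035116-161035215 (plus strand), Snhg8 at chr3:123508287-123508386 (minus strand) and Snhg12 at chr4:132308628-132308727 (plus strand).
Snhg1: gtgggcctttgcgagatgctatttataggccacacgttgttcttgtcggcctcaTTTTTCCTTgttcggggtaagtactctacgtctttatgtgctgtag
Snhg14: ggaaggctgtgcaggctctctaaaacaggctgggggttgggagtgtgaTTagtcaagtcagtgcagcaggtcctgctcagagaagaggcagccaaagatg
Gas5: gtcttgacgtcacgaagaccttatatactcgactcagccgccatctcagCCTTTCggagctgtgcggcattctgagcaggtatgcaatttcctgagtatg
Snhg8: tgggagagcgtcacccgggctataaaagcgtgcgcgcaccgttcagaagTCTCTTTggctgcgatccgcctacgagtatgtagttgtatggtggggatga
Snhg12: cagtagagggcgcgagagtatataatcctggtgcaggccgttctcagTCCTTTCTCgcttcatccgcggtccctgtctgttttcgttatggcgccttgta
The run had 9 bases in Snhg1 and Snhg12 (a run as long was in 6.65% of all 32851 windows), 7 in Snhg8 (13.5%), 6 in Gas5 (20.2%) and 2 in Snhg14 (86.6%). It had 5 bases in Snhg3, and 3 in Snhg5, Snhg11 and the other Gas5 window. A run of at least 6 was thus present in 4 of the 9 windows. TATANA, searched on the strand of the gene from 40 to 21 bases before the start, was found in 4 of the 9 windows, those of Snhg5, Snhg8, Snhg12 and the second start of Gas5, and in 3.08% of all windows. On either strand and anywhere in the 300 bases, it was in 6 of the 9 windows and in 24.7% of all.

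Snhg4 was compared with its snoRNA Snora74a. Snhg4 (ENSMUSG00000097769), placed by RefSeq on chromosome 18 from 35553410 to 35558316, had 10.9, 8.87 and 9.93 FPKM in control and 9.54, 8.07 and 10.4 FPKM in SMA libraries, with overlap and a log2 fold change of -0.08 (interval -0.39 to 0.22, adjusted p = 0.803 by limma). Snora74a, a box H/ACA snoRNA of 196 bases inside the RefSeq span of Snhg4, was listed at 0, 2.99 and 0 FPKM in control and at 10.5, 7.85 and 5.56 FPKM in SMA libraries. The host overlapped between the groups and the snoRNA did not (10.3% of all genes tested lay above), and the difference between host and snoRNA was not tested. The level of Snora74a relative to Snhg4 was 0.337 in control replicate 2, where alone among the controls it was above 0, and 1.10, 0.973 and 0.536 in the SMA libraries. Over the 6 libraries the log2 fold change of Snora74a was 2.46 with a standard error of 0.557 (adjusted p = 0.683 by limma), and it depends on the pseudocount. Without control replicate 2 both control libraries were at 0, so no fold is given. The adjusted p = 0.0215 by limma (higher in 3 of 3 SMA libraries) then rests on 2 control values of 0, which have no spread. Snora74a also passed the filter of 0.5 FPKM there only through the SMA libraries, so nothing is drawn from this call. Over the same libraries Snhg4 had a log2 fold change of -0.15 (adjusted p = 0.681 by limma), and it had -0.15 without SMA replicate 3, -0.01 without control replicate 1 and 0.01 without SMA replicate 2. Both share a deposited locus with Matr3, a nuclear matrix protein gene at 169, 120 and 158 FPKM in control and 169, 174 and 170 FPKM in SMA libraries, and a gene of 196 bases is close to the shortest with any value.

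Of the 4 listed Snora genes, 2 were tested, Snora73b and Snora74a, with a median log2 fold change of 1.45. The median was 0.45 without a filter and 3.00 with a pseudocount of 0.1. Snora81 was listed only in SMA replicate 3, at 1.56 FPKM. Snord17, the only listed Snord gene, had 4.17, 2.48 and 0.622 FPKM in control and 7.14, 2.53 and 2.65 FPKM in SMA libraries. The groups overlapped (log2 fold change 0.61, adjusted p = 0.683 by limma, and 0.70 without control replicate 2), and the fold change was 0.99 without control replicate 1, 0.15 without control replicate 3 and 0.22 without SMA replicate 1. All snoRNA and scaRNA genes with a value, counted by their annotated type after the values were seen, came to 27, of which 13 were tested. Of these, 12 had a positive log2 fold change (median 0.52), 5 were higher at an unadjusted p under 0.05 and 0 were lower (3.40% and 2.39% of all genes tested). Without control replicate 2 the median was 0.71 and 8 were higher (5.27% of all genes tested). Among these, Snora74a, Scarna13, Gm24119 and Gm26448 then had control means of 0, 0.348, 0.379 and 0.341 FPKM. They passed the filter of 0.5 FPKM only through the SMA libraries. Their calls are tied to that direction, and nothing is drawn from them. Short genes of other types had the same direction. Of the 38 tested genes with at most 300 bases that were neither snoRNA nor scaRNA genes, 30 (78.9%) had a positive log2 fold change (median 0.33), and 31 had one without control replicate 2 (median 0.55). Over 300 bases, 57.9% of 16958 genes had a positive log2 fold change with 6 libraries (median 0.04). At an unadjusted p under 0.05, 7 of these 38 short genes were higher with 6 libraries (3.40% of all genes tested). Without control replicate 2 it was 13 (5.27%). How many of the 38 passed the filter of 0.5 FPKM only through the SMA libraries was not examined, so nothing is drawn from these counts. The part of gene length in the values of Snora74a and the other snoRNAs was not tested. Of the 10 hosts, 3 had a positive and 7 a negative log2 fold change with 6 libraries, and 4 and 6 without control replicate 2 (58.0% and 50.4% of all genes tested were positive). A difference between hosts and snoRNA genes was not tested, and the sign of Snhg4, Snhg5, Snhg6 and Snhg12 turned in at least 1 alternative fit.

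Related genes were described by lists chosen for their roles. Of the other noncoding hosts, 9 of 12 symbols were found (Snhg7, Snhg9 and Snhg10 were not matched), as 10 genes because Dancr had 2. By limma, 0 of the 10 passed an adjusted p of 0.05. At an unadjusted p under 0.05, 1 was lower in SMA mice (2.39% of all genes tested) and 0 were higher (3.40%), with a median log2 fold change of -0.02 and of 0.00 without control replicate 2. That gene was Snhg20, with 8.86, 9.37 and 11.5 FPKM in control and 7.98, 7.22 and 7.17 FPKM in SMA libraries, and no overlap (6.67% of all genes tested lay below). Its log2 fold change was -0.36 (adjusted p = 0.683 by limma) and -0.40 without control replicate 2 (adjusted p = 0.367 by limma). Rian and Meg3, noncoding RNAs of the imprinted Dlk1-Dio3 region, were more abundant than any of the 10 hosts. Rian had 968, 698 and 1012 FPKM in control and 967, 1036 and 1058 FPKM in SMA libraries, and Meg3 had 675, 812 and 978 FPKM in control and 917, 882 and 945 FPKM in SMA libraries. Both overlapped between the groups. Zfas1 had 10.7 to 14.7 FPKM in control and 9.91 to 12.6 FPKM in SMA libraries.

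Protein-coding snoRNA hosts were all found (25 genes), and 0 passed an adjusted p of 0.05 by limma, with 0 in either direction at an unadjusted p under 0.05, against 3.40% higher and 2.39% lower of all genes tested (median log2 fold change -0.04, and -0.02 without control replicate 2). The most abundant were Eef2 (395 to 440 FPKM in control, 446 to 469 FPKM in SMA libraries, without overlap), Hspa8 (327 to 439 and 416 to 431 FPKM) and Rpl10 (334 to 445 and 314 to 353 FPKM). Of the 25 genes, 2 (Eef2 and Taf1d) lay above without overlap and 1 (Eif4a1) below (10.3% and 6.67% of all genes tested). Without control replicate 2 it was 2 above and 2 below (14.2% and 13.9%). The 17 5'TOP mRNAs outside the ribosomal proteins had 0 genes past an adjusted p of 0.05 by limma. At an unadjusted p under 0.05 it was 0 in either direction (3.40% higher and 2.39% lower of all genes tested). Their median was -0.02 (-0.00 without control replicate 2). Eef1a1, at 956 to 1183 FPKM in control and 1029 to 1102 FPKM in SMA libraries, was the most abundant, followed by Eef2 and Tpt1 (259 to 424 and 270 to 288 FPKM). Control replicate 2 was the highest library for 7 and the lowest for 5 of these 17 genes, and the highest for 13 and the lowest for 5 of the 25 protein-coding hosts.

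The proteins that bind and assemble snoRNAs had no member past an unadjusted p of 0.05 with control replicate 2 (3.40% higher and 2.39% lower of all genes tested) or without it (5.27% and 5.20%), and 0 passed an adjusted p of 0.05 by limma. This covered the 4 box C/D core proteins (median log2 fold change 0.01, and -0.07 without control replicate 2), the 4 box H/ACA core proteins (-0.15 and -0.07) and the 11 assembly factors (0.09 and 0.02). Nop56 had 47.2 to 72.0 FPKM in control and 60.5 to 73.1 FPKM in SMA libraries, Snu13 34.2 to 54.3 and 44.5 to 48.2 FPKM, and Nop58 17.3 to 22.0 and 18.7 to 20.2 FPKM. Fbl, the methyltransferase, had 14.0 to 16.2 FPKM in control and 12.8 to 13.9 FPKM in SMA libraries, without overlap (log2 fold change -0.16, and -0.11 without control replicate 2). Of all genes tested, 6.67% lay below in this way, and 13.9% did without that library. Among the H/ACA proteins, Nhp2 had 11.3 to 15.8 FPKM in control and 11.7 to 13.0 FPKM in SMA libraries, Nop10 9.85 to 12.5 and 8.44 to 12.6 FPKM, and Dkc1, which is the pseudouridine synthase, 6.88 to 11.5 and 7.45 to 8.33 FPKM. Besides Fbl, all 6 of these genes overlapped between the groups. The assembly factors Ruvbl2, Ruvbl1 and Pih1d1 lay between 7.95 and 12.7 FPKM in every library. Of the 11 assembly factors, 2 (Naf1 and Nufip1) lay above in SMA libraries without overlap. This was so with control replicate 2 (10.3% of all genes tested) and without it (14.2%).

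The 14 nonsense-mediated decay factors had 0 genes at an unadjusted p under 0.05 (3.40% higher and 2.39% lower of all genes tested) and 0 past an adjusted p of 0.05 by limma (median log2 fold change 0.07, and 0.00 without control replicate 2). Smg1, the kinase of the pathway, had 32.5 to 39.0 FPKM in control and 35.2 to 36.9 FPKM in SMA libraries, Eif4a3 24.0 to 31.5 and 27.1 to 28.1 FPKM, and Smg5 22.5 to 30.8 and 25.1 to 27.9 FPKM. Of the imprinted neighbours of Snhg14, 7 of 8 were found (Ipw was not matched), and all 7 had a positive log2 fold change (median 0.29, and 58.0% of all genes tested were positive), while 0 had an unadjusted p under 0.05 or passed an adjusted p of 0.05 by limma. All 7 were lowest in control replicate 2, and without it 5 were positive (50.4% of all genes tested) with a median of 0.10. Ube3a, Snrpn and Snurf were also among the genes along the Snhg14 unit above, so their values are the same ones and not further evidence. Ndn, in the same imprinted domain, had 83.8, 44.6 and 79.7 FPKM in control and 87.2, 87.4 and 86.7 FPKM in SMA libraries, with no overlap, a log2 fold change of 0.38 and 0.09 without control replicate 2 (adjusted p = 0.683 and 0.592 by limma). Magel2 (0.29, and 0.19 without that library) and Atp10a (0.17 and 0.12) also had no overlap, which makes 3 of 7 neighbours above (10.3% of all genes tested).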

How the data were processed

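Bulk-seq values of 6 spinal cord libraries were used, 3 of SMA mice and 3 of control mice at postnatal day 4. The FPKM values were made by the authors, who removed ribosomal RNA, made strand-specific libraries, aligned reads with HISAT2 and quantified genes with Cufflinks. The submitters' notes name mm10, and versions of the tools, the annotation and the strand setting of the quantification are not given. The deposited values list only genes above 0, and a gene missing from a library was set to 0. Because the values are FPKM, a count test such as DESeq2 could not be run, and sequencing depth in reads is unknown. Relative to SMA replicate 1, the depth estimated from the smallest values was 1.15, 1.09 and 1.05 in control replicates and 1.02 and 1.00 in SMA replicates 2 and 3.

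After removal of genes whose mean over the libraries fell under 0.5 FPKM, log2(FPKM + 1) was tested with limma 3.58.1 (trend, R 4.3.3), two-sided, with Benjamini-Hochberg adjustment over all genes tested. Exact two-sided permutation tests on log2(FPKM + 1) had a smallest possible p of 0.1 for 3 against 3 and for 3 against 2 libraries. The fit was repeated without control replicate 2. Host genes were matched by symbol, and the host genes and the lists of related genes and markers were chosen with earlier results of these data known. Alternatives were another pseudocount, no or a stricter filter, rescaling to the same total, median-ratio scaling, quantile normalization, leaving out each library in turn and the replicate number as a block. Median-ratio scaling without control replicate 2 was added after the values had been seen.

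Positions and snoRNA sequences came from GENCODE M21 (GRCm38), in which 25408 of the 25576 identifiers were found, and promoters and the spans of Snhg4 and Snhg14 from RefSeq (GRCm38.p6). Tables and figures were made with Python 3.11.15, pandas 2.3.3, numpy 2.4.6, scipy 1.17.1 and matplotlib 3.10.9.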

Additional observations from a re-analysis of the deposited data

How the results depend on the processing

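The number of host genes past an adjusted p of 0.05 was 0 by limma in all 14 alternative fits. At an unadjusted p under 0.05 the number was 0 with all 6 libraries and no block. It was 1 with the replicate number as a block (replicate block; Snhg1, log2 fold change -0.45, adjusted p = 0.739), 1 (Snhg14) with median-ratio scaling and control replicate 2 left out, and 0 to 2 when single libraries were left out, with 2 (Snhg14 and Snhg1) without control replicate 3, 1 (Snhg14) without control replicate 2, 1 (Snhg1) without SMA replicate 1 and 0 without each of the other 3 libraries. Between a control and an SMA library of the same number, deviations from the group mean correlated at -0.04 (1), 0.02 (2) and 0.08 (3), the last being the highest of all 9 pairs, and pairs of different numbers ran from -0.06 to 0.04.

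Of 140 log2 fold changes of single hosts, 11 had the opposite sign. Snhg12 (-0.01) became 0.01 with the same total in each library, 0.05 with quantile normalization and 0.05 with median-ratio scaling and control replicate 2 left out. Leaving out single libraries gave Snhg12 values from -0.14 to 0.11, Snhg5 (0.07) from -0.06 to 0.23, Snhg4 (-0.08) from -0.15 to 0.01 and Snhg6 (-0.06) from -0.23 to 0.11. Snhg6 was 0.04 with quantile normalization. Snhg14 ranged from 0.22 to 0.40, Snhg1 from -0.56 to -0.28, Snhg11 from 0.02 to 0.29, Gas5 from -0.23 to -0.04, Snhg3 from -0.40 to -0.07 and Snhg8 from -0.32 to -0.06. The median of the listed Snora genes (1.45) was 3.00 with a pseudocount of 0.1 and 0.45 without a filter. With the filter the median covers 2 genes, Snora73b and Snora74a, and without it all 4 listed genes. Of the added genes, Snora73a was at 0 in 4 libraries and Snora81 in 5. Snora74a was at 0 in 2 libraries, and its fold change depends on the pseudocount. The cause of the sign changes of single hosts was not tested.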
